A study of Mus musculus with 3 samples.

Results

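The forkhead (Fox) and Sox families were examined in embryonic mouse mammary cells on 3 Affymetrix arrays. Each array held RNA of cells from the female embryos of 1 litter carrying Lgr5-IRES-GFP, a fluorescent reporter of Lgr5, at embryonic day 14. The cells had been digested from epidermis together with mammary gland and sorted for high CD49f, the integrin alpha 6 chain, and high reporter signal. There was 1 group with 3 biological replicates and no control group, so each pool averages all sorted cells of a litter. The labels state that either 813 or 2000 cells were sorted and that cDNA was amplified over 25 cycles, without saying which array had which number.

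Members were all genes with a Fox symbol (letters a to s) or a numbered Sox symbol that were measured by a probe set annotated with that gene alone, except Foxa1, Sox9 and Sox11. This gave 52 genes of 17097, namely 35 forkhead and 17 Sox genes, with 102 probe sets in all. A gene was represented by its probe set with the highest mean, and values below are those of this probe set unless others are named. The unit is log2 expression, and no order was drawn up between probe sets, since probes differ in binding strength.

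Forkhead proteins bind DNA through a winged-helix domain and Sox proteins through an HMG box that bends the DNA. Both families hold broadly expressed regulators of growth and cell cycle beside factors that specify single lineages, such as neural crest, endothelium, lens, thymus or regulatory T cells. In the mammary gland, Sox10 is known from fetal stem and progenitor cells and Foxp1 from the regulation of adult stem cell quiescence. Foxo factors are held out of the nucleus when the kinase Akt phosphorylates them, and Foxm1 drives genes of mitosis.

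The sorted genes were detected in each pool. Itga6, which encodes CD49f, read 10.05 in replicate 1, 10.24 in replicate 2 and 10.82 in replicate 3 (log2), and Lgr5 had 9.99, 10.04 and 10.78. All 12 measured genes of a basal epithelial list were above background, including Trp63 (10.53 ± 0.39, SD, n = 3), Krt5 (12.15 ± 0.16) and Krt14 (11.38 ± 0.25). Of 13 luminal genes 9 were, including Krt8 (10.07 ± 0.33), Krt18 (8.89 ± 0.51) and Krt19 (7.43 ± 0.20), and not Krt7 (6.04 ± 0.15) or Elf5 (5.93 ± 0.49). Genes of dermal mesenchyme were detected as well, 14 of 17, including the collagen gene Col1a1 (12.99 ± 0.15, SD, n = 3), Dcn (11.43 ± 0.07) and Lum (10.10 ± 0.19), but not Pdgfra (4.89 ± 0.55) or En1 (4.59 ± 0.24). The mean log2 value of this list was 9.80, 9.65 and 9.70 on the 3 arrays. Its part in the results below was not tested. In such pools, fewer cells of a type and less RNA per cell cannot be told apart.

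A gene was called above background when its mean over the arrays lay above a threshold set on the same arrays, with an adjusted p under 0.05. The threshold of an array was the 95th percentile of 74 olfactory and vomeronasal receptor genes, at log2 values of 6.14, 6.17 and 5.99. Of the 52 members, 19 were above background (36.5%), against 55.1% of all genes tested. The 19 comprised 13 of 35 forkhead genes (37.1%) and 6 of 17 Sox genes (35.3%). The median distance to the threshold was 0.13 over the members and 0.78 over all genes. All 19 lay over the threshold on each of the 3 arrays. Of the 33 others, 20 lay under it on each array and 13 were over it on at least 1.

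**Figure D1:**
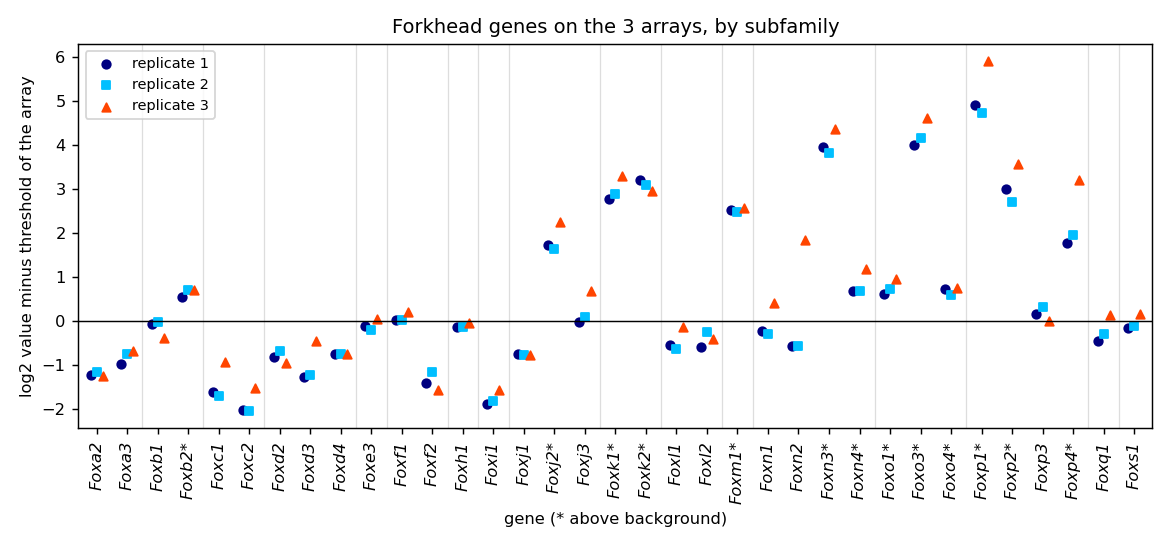
Log2 value minus the threshold of the array for the 35 forkhead genes, 1 symbol per array, grouped by subfamily with an asterisk for the 13 genes above background. The Foxk, Foxm, Foxo genes and all Foxp genes but Foxp3 carry the asterisk, whereas no Foxa, Foxc, Foxd or Foxf gene does.

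The Foxp subfamily, repressors that act as dimers, had 3 of 4 members above background. Foxp1 had log2 values of 11.06, 10.91 and 11.89, a mean of 5.18 above the threshold (SE 0.26, adjusted p = 4.49e-05). All 7 of its probe sets were over the threshold on every array. Foxp2, best known from the developing brain, had 9.15, 8.88 and 9.55 (3.09 above, adjusted p = 0.000115), with 3 of 5 probe sets over the threshold on every array. Foxp4 had 7.92, 8.12 and 9.18 (2.31 above, adjusted p = 0.00122) and all 3 of its probe sets were over the threshold. Foxp1 and Foxp4 were both higher on replicate 3 than on the other arrays, which differed little from each other. Replicate 3 was the highest array in 63.1% of all genes.

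Foxp3, the factor of regulatory T cells, was not above background (6.30, 6.50 and 5.99, adjusted p = 0.223). It lay over the threshold on each array, on replicate 3 by 0.006, and was called in 2 of the 11 alternative settings. It was measured by 1 probe set. Among 13 leukocyte genes 4 were above background (30.8%, against 55.1% of all genes). Of these, Cd4 (7.49 ± 0.34), Csf1r (6.47 ± 0.14) and Cd68 (8.83 ± 0.26, SD, n = 3) come first in list order. The T cell genes of the list other than Cd4 were not called. These were Cd3e (5.76 ± 0.77), Cd8a (6.37 ± 0.07), Ctla4 (4.55 ± 0.20) and Il2ra (4.45 ± 0.22). The pan-leukocyte gene Ptprc (4.03 ± 0.20) was not called either.

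All 3 measured Foxo genes were above background, and Foxo3 alone under every threshold tried. Foxo3 had log2 values of 10.14, 10.33 and 10.61 (4.26 above the threshold, SE 0.18, adjusted p = 3.00e-05), and its 3 probe sets gave mean distances of 4.23, 4.26 and 4.02. Foxo1 had 6.76, 6.89 and 6.93 (0.76 above, adjusted p = 0.00365). Foxo4 had 6.87, 6.77 and 6.75 (0.69 above, adjusted p = 0.00370), and its other probe set lay under the threshold on each array. Foxo1 and Foxo4 changed little between the arrays and lay close to the threshold.

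Genes that control Foxo proteins were detected almost throughout. Of 17 measured genes of this list, which holds the phosphoinositide 3-kinase and Akt genes, the 14-3-3 genes and Foxo modifiers, 16 were above background, and the list median was 4.10 above the threshold. The catalytic kinase subunit gene Pik3ca stood at 9.50 ± 0.11, its regulatory subunit gene Pik3r1 at 10.20 ± 0.08 and the Akt-activating kinase gene Pdpk1 at 8.36 ± 0.45 (SD, n = 3). Sirt1, a deacetylase gene, was the 1 not called, with 5.80, 5.90 and 7.82. Of 19 Foxo target genes 16 were above background, among them the cell cycle inhibitor genes Cdkn1a (10.07 ± 0.43) and Cdkn1b (9.08 ± 0.49) and the cyclin gene Ccng2 (7.75 ± 0.84). The targets Rbl2 (6.38 ± 0.13), Pdk4 (4.45 ± 0.07) and Trim63 (4.56 ± 0.04) were not. The share over all genes was 55.1%, as above.

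Foxm1, the mitotic forkhead factor, had log2 values of 8.67, 8.65 and 8.55 (2.52 above the threshold, SE 0.15, adjusted p = 7.26e-05). On this probe set the SD over the arrays was 0.07, whereas another probe set over the threshold was lower on replicate 3, by -0.75. Of its 4 probe sets 3 were over the threshold on every array and the distance of the other was -1.93. Foxm1 target genes were above background in 18 of 19 cases, such as the cyclin genes Ccnb2 (8.32 ± 0.11) and Ccna2 (10.79 ± 0.25) and the phosphatase gene Cdc25b (7.37 ± 0.27, SD, n = 3). Nek2, a centrosomal kinase gene, was the exception (5.64 ± 0.27).

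Several forkhead genes of broad expression were also above background. Foxk1 had log2 values of 8.92, 9.05 and 9.29 (2.98 above the threshold, adjusted p = 7.37e-05). Its paralogue Foxk2 had 9.35, 9.27 and 8.94 (3.09 above, adjusted p = 4.69e-05). The pair is known from the control of autophagy and glycolysis. Of the probe sets of Foxk2, 4 of 5 were over the threshold on every array, as were both of Foxk1. Foxn3, a repressor linked to cell cycle checkpoints, had 10.11, 9.99 and 10.35 (4.05 above, adjusted p = 3.09e-05), with all 3 probe sets over the threshold. Foxj2 had 7.88, 7.82 and 8.24 (1.88 above, adjusted p = 0.000372).

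Foxn4, a factor of retinal progenitors, had 6.82, 6.86 and 7.17 (0.85 above the threshold, adjusted p = 0.00443). Foxb2, known from the embryonic brain, had 6.69, 6.87 and 6.69 (0.65 above, adjusted p = 0.00462), and its call was lost without replicate 2 (adjusted p = 0.0554). Its distance was then still 0.63, with an SE of 0.33 against 0.13. Foxn4 and Foxb2 were each measured by 1 probe set. Of 64 genes restricted to unrelated tissues, 15 (23.4%) were above the same threshold, such as the testis genes Prm1 (8.02 ± 0.08, SD, n = 3), Tnp2 (6.76 ± 0.31) and Ldhc (6.91 ± 0.23), but not Prm2 (6.20 ± 0.21) or Prm3 (6.23 ± 0.15). A distance of this size was thus also seen in genes of tissues that the sort did not collect. Larger ones occurred as well, for Gad2 (1.56 above the threshold), Prm1 (1.92) and Oxt (2.91). The limit therefore also covers called members such as Foxo1, Foxo4, Foxj2, Sox5, Sox10, Sox13 and Sox18.

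Forkhead genes of endoderm and mesenchyme were not called by limma, and none had an unadjusted p under 0.05. Foxa2 (4.90 ± 0.14) and Foxa3 (5.29 ± 0.13, SD, n = 3), pioneer factors of endoderm, lay under the threshold on each array. The same held for Foxc1 (4.52, 4.46 and 5.05) and Foxc2 (4.11, 4.13 and 4.46), which act in mesenchyme and, for Foxc1, in sweat glands and hair. Both probe sets of Foxc1 were under the threshold. Foxf2, a hedgehog-responsive mesenchymal gene, stood at 4.72 ± 0.30. Its relative Foxf1 was at the threshold on each array (6.15, 6.20 and 6.19, adjusted p = 0.428), and its second probe set was over it on replicate 3 alone. These mesenchymal forkhead genes were not above background in pools where Dcn and Col1a1 were.

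Hedgehog pathway genes, which induce Foxf genes in other organs, were above background in 9 of 11 cases. Shh had 6.76 ± 0.12, its receptor gene Ptch1 7.52 ± 0.44 and the signal transducer gene Smo 11.16 ± 0.09 (SD, n = 3). The ligand genes Ihh (6.12 ± 0.24) and Dhh (6.52 ± 0.50) were not above background. The threshold of the tissue-restricted genes was passed by 3 of the 11, against 27.8% of all genes.

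Of the forkhead genes of hair and skin appendages, neither Foxn1 nor Foxq1 passed the test. Foxe1 and Foxi3, also chosen beforehand to be named, were not measured by a probe set annotated with that gene alone. Foxn1, the nude gene of hair and thymus, had 5.91, 5.87 and 6.40 (adjusted p = 0.906), over the threshold on replicate 3 alone. Foxq1, the satin gene of hair, had 5.69, 5.88 and 6.12 (adjusted p = 1), again over it on replicate 3 alone. Foxi1, of ionocytes and the inner ear, lay at 4.35 ± 0.08 (SD, n = 3). In a list of hair placode and follicle genes 13 of 16 were above background (81.2%, against 55.1% of all genes). Edar (7.44, 7.86 and 9.34), Edaradd (9.35 ± 0.63) and Shh were the first in list order, and Lhx2 (4.67 ± 0.13) and Fgf20 (5.95 ± 0.49) were not called.

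Foxj1, the master gene of motile cilia, lay under the threshold on each array (5.39, 5.40 and 5.23). Of 12 genes of motile ciliated cells 7 were above background (58.3%, against 55.1% of all genes). They included Tekt1 (6.73 ± 0.23), Dnah11 (8.95 ± 0.73) and Dnali1 (7.12 ± 0.26, SD, n = 3). The axonemal genes Dnah5 (5.54 ± 0.08) and Rsph1 (5.74 ± 0.15) were not. The threshold of the tissue-restricted genes was passed by 2 of the 12, against 27.8% of all genes. Foxj3, a relative of Foxj2, had 6.12, 6.27 and 6.68 and was not above background (adjusted p = 0.191).

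The remaining forkhead genes were near or under the threshold. Foxd2, Foxd4, Foxb1, Foxh1, Foxl1 and Foxl2 lay under it on each array by their representative probe sets, though another probe set of Foxh1 was 0.54 over it on replicate 3. Also under it on each array was the neural crest gene Foxd3 (4.88, 4.96 and 5.53). The lens gene Foxe3 (6.04, 5.96 and 6.03) and Foxs1 (5.97, 6.06 and 6.15) were over it on replicate 3 alone. That array had the lowest threshold, and Foxe3 read no higher there than on replicate 1. Foxn2 was the least even member, at 5.56, 5.61 and 7.83. It was therefore well over the threshold on replicate 3 and under it on the others, and not above background by the test (adjusted p = 0.543).

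**Figure D2:**
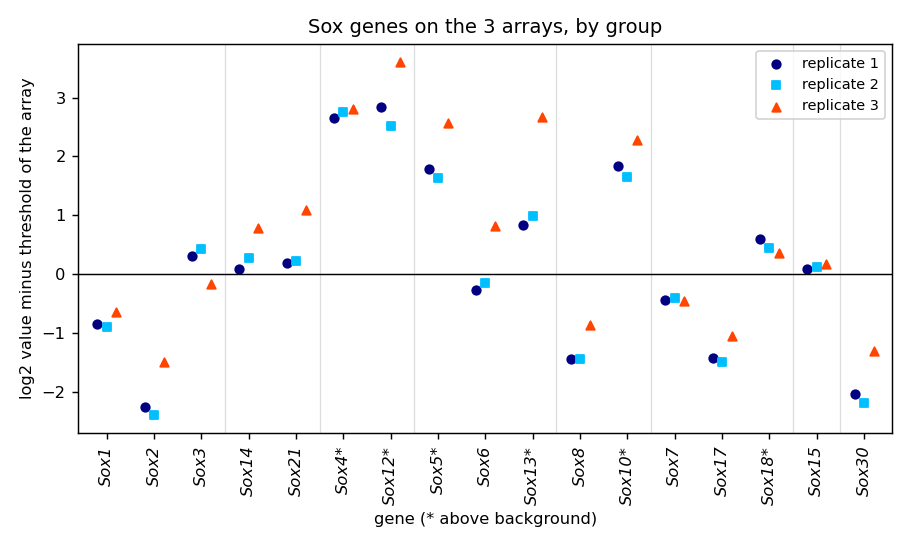
Log2 value minus the threshold of the array for the 17 Sox genes, 1 symbol per array, grouped as B1, B2, C, D, E, F, G and H from left to right, with an asterisk for the 6 genes above background. Sox4 and Sox12 lie over the threshold by more than 2 on each array, and Sox2, Sox8, Sox17 and Sox30 lie well under it.

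Both measured genes of Sox group C, activators that support survival of embryonic progenitors, were above background. Sox4 had log2 values of 8.80, 8.93 and 8.79 (2.74 above the threshold, SE 0.15, adjusted p = 5.93e-05), and all 5 of its probe sets were over the threshold on each array. Sox12 had 8.98, 8.69 and 9.60 (2.99 above, adjusted p = 0.000210), with all 3 probe sets over the threshold. Sox4 was the steadier of the pair on its representative probe set, with an SD of 0.08 against 0.47.

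Group D, whose proteins lack a known activation domain and pair with other Sox factors, was divided. Sox5 had 7.94, 7.81 and 8.56 (2.00 above the threshold, adjusted p = 0.000668). Only 1 of its 4 probe sets was over the threshold on every array, and the mean of the 4 was not above background (adjusted p = 0.467). Sox13 had 6.98, 7.15 and 8.65 (1.49 above, SE 0.40, adjusted p = 0.0141). Sox6 had 5.88, 6.02 and 6.81 and was not above background (adjusted p = 0.497), being over the threshold on replicate 3 alone. In all 3 genes of the group replicate 3 gave the highest value, as it did in 59.6% of the members and 63.1% of all genes.

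In group E, Sox10 was above background and Sox8 was not. Sox10 had 7.98, 7.82 and 8.26 (1.92 above the threshold, SE 0.19, adjusted p = 0.000339), and its 3 probe sets were over the threshold on each array. Sox8, which overlaps with Sox10 in function in neural crest and glia, had 4.69, 4.72 and 5.11. Of 14 genes of neural crest, glia and melanocytes 6 were above background (42.9%, against 55.1% of all genes). Pmel (7.33 ± 0.26), Ednrb (7.31 ± 0.25) and Mbp (6.56 ± 0.16, SD, n = 3) were the first in list order. The others called were Erbb3 (9.12 ± 0.43), Ngfr (8.61 ± 0.25) and Tfap2a (10.35 ± 0.43). The melanocyte genes Mitf (5.64 ± 0.60), Dct (6.36 ± 0.58), Tyr (5.16 ± 0.10) and Tyrp1 (4.63 ± 0.22) and the glial gene S100b (5.53 ± 0.27) were not called. Kit (5.43 ± 0.97), Pax3 (6.56 ± 0.41) and Fabp7 (6.62 ± 1.85, from 5.64, 5.47 and 8.75) were not either. The mean log2 value of the list was 6.63, 6.63 and 7.15 on replicates 1, 2 and 3. At the threshold of the tissue-restricted genes 3 of the 14 passed, against 27.8% of all genes. The part of such cells in the Sox10 signal was not tested.

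Group F holds the endothelial Sox genes, and 1 of its 3 members was called. Sox18 had 6.74, 6.61 and 6.34 (0.46 above the threshold, SE 0.13, adjusted p = 0.0163), and its call was lost without replicate 1 (adjusted p = 0.190) or replicate 2 (0.127). Its distance was then still 0.40 and 0.47, with an SE of 0.32 in each of these fits. Sox7 (5.70, 5.77 and 5.53) and Sox17 (4.72, 4.68 and 4.94) lay under the threshold on each array. Of 18 endothelial genes 5 were above background (27.8%, against 55.1% of all genes). Among them were Pecam1 (8.12, 8.30 and 6.47), Flt1 (6.85 ± 0.29) and Egfl7 (7.29 ± 0.40, SD, n = 3). Cdh5 (5.81 ± 0.27) and Kdr (6.35 ± 0.35) were not. The list mean was 6.43, 6.40 and 6.37, and it includes Ramp2, which was called and read 12.83, 12.80 and 12.85. The median distance of the list to the threshold was -0.25. The part of endothelial cells in the Sox18 signal was not tested.

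No gene of groups B1, B2, G and H was above background by limma, and 2 of the 7 had an unadjusted p under 0.05. Sox2, a factor of pluripotent, neural and Merkel cells, had 3.87, 3.77 and 4.50, far under the threshold, and by limma none of 10 Merkel cell genes was called (0 at an unadjusted p under 0.05, 0 without the trend), with Atoh1 at 5.20 ± 0.26 and Isl1 at 6.12 ± 0.22 (SD, n = 3). Sox1 (5.30 ± 0.04) and the testis gene Sox30 (4.25 ± 0.37) were under it too. Sox3 had 6.44, 6.60 and 5.82 (adjusted p = 0.262), over the threshold on replicates 1 and 2.

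Of these groups, Sox21, Sox14 and Sox15 were over the threshold on every array without passing the test. Sox21, known from the hair shaft cuticle, had 6.33, 6.39 and 7.07 (0.50 above the threshold, adjusted p = 0.0701). Sox14 had 6.22, 6.44 and 6.77 (0.38 above, adjusted p = 0.0797). Sox15, a gene of muscle progenitors and trophoblast, had 6.23, 6.29 and 6.16 (0.13 above, adjusted p = 0.274). Sox21 and Sox14 had an unadjusted p under 0.05, so that 21 members had one in all (40.4%, against 57.0% of all genes). By contrast Sox18, with the smallest distance among the called members, passed with an SE of 0.13, against 0.22 for Sox21 and 0.18 for Sox14.

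Genes whose products act with Sox or forkhead proteins were above background in 15 of 21 cases. The beta-catenin gene Ctnnb1 (11.68 ± 0.41), Pax6 (7.72 ± 0.31) and Nkx2-1 (6.85 ± 0.14, SD, n = 3) were the first in list order. The POU genes Pou3f1 (6.02 ± 0.24) and Pou3f2 (5.67 ± 0.09) were not above background.

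The calls of several forkhead and Sox genes depended on the threshold. With the brightest of 23 antigenomic control probe sets as the threshold, 13 members were above background (25.0%, against 31.6% of all genes). With the 95th percentile of the 64 tissue-restricted genes, 9 were (17.3%, against 27.8% of all genes), namely Foxk1, Foxk2, Foxm1, Foxn3, Foxo3, Foxp1, Foxp2, Sox4 and Sox12. These 9 were above background under every setting tried. Foxb2, Foxn4, Foxo1, Foxo4 and Sox18 lay under both stricter thresholds. The means of Foxj2, Foxp4, Sox5, Sox10 and Sox13 stayed over both, without a call at the tissue-restricted one. Of these, the first 4 kept their call with the antigenomic threshold. The mean of Sox13 was over the antigenomic threshold by 0.21 and over the tissue-restricted one by 0.10. On replicates 1 and 2 (6.98 and 7.15) Sox13 lay under both.

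Other settings moved the count of members less. The 99th percentile of the receptor genes left 15 members (47.8% of all genes), and averaging the probe sets of each gene gave 21 (53.1%). Omitting cross-hybridising probe sets, quantile normalization and a fit without trend each gave 19 members, beside 53.7%, 55.3% and 54.9% of all genes. With the dimmest 25% of genes left out, 19 of the 37 members tested were called, beside 74.4% of the genes tested. Without replicate 1, 2 or 3 the count was 18, 17 and 22, beside 53.1%, 53.5% and 58.5% of all genes. The 22 without replicate 3 included Foxp3, Sox3 and Sox21.

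**Figure D3:**
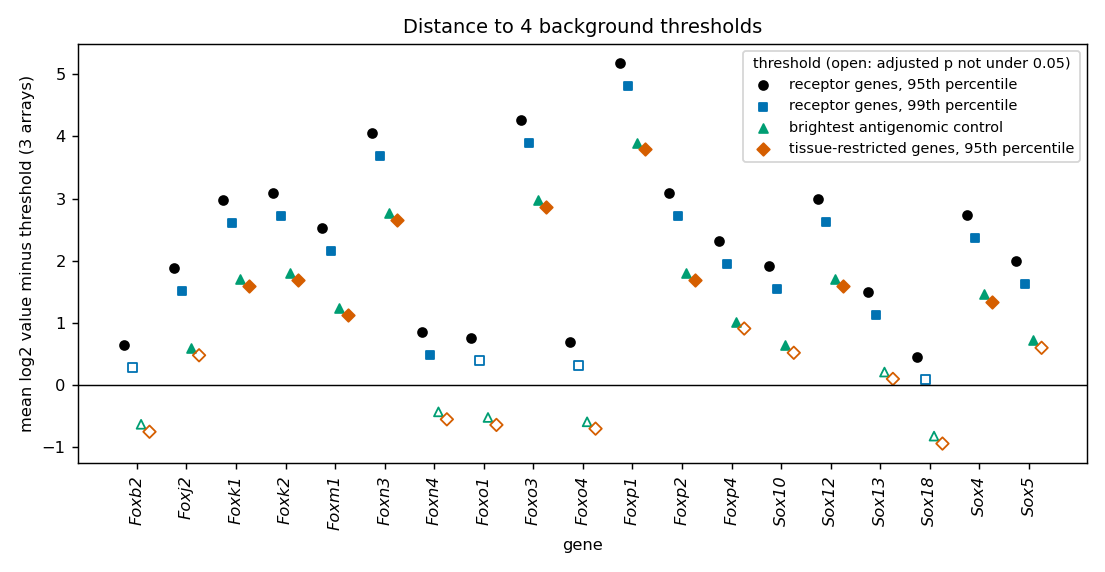
Mean log2 value over the 3 arrays minus each of 4 background thresholds for the 19 forkhead and Sox genes above background, with open symbols where the adjusted p was not under 0.05. Foxb2, Foxn4, Foxo1, Foxo4 and Sox18 fall under 0 with the antigenomic and the tissue-restricted thresholds, and 9 genes keep filled symbols throughout.

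Members with more probe sets were called more often. Of 25 members with several probe sets 14 were above background (56.0%), and of 27 with a single probe set 5 were (18.5%). Over all genes the shares were 72.5% and 42.6%. A gene represented by its highest probe set has more chances to lie over a threshold when it has more probe sets. The part of this choice in the difference was not tested. Among the 14 called members with several probe sets, 9 had all of them over the threshold on each array, and Foxk2, Foxm1, Foxo4, Foxp2 and Sox5 had some that were not.

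Replicate 3 stood apart from the other arrays. Its distribution of values differed from that of the other arrays, with a median over all probe sets of 6.52 against 6.25 and 6.25. Replicate 3 was higher than the mean of the others by a median of 0.26 over the members and of 0.22 over all genes. After quantile normalization these medians became -0.13 and -0.10. Replicates 1 and 2 differed by a median size of 0.10 over the members and by at most 0.38 (Foxl2).

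On replicate 3, 3 members were higher by more than 1, which was 5.77% of them against 9.36% of all genes, and none was lower by more than 1. Foxn2 was higher by 2.24, Sox13 by 1.59 and Foxp4 by 1.16. After quantile normalization the differences were 1.90, 1.20 and 0.75, so that Foxp4 no longer exceeded 1. Foxn2 and Sox13 were measured by 1 probe set each. The other probe sets of Foxp4 gave 0.31 and 0.76 before that normalization. Each litter was measured once, so these differences have no test, and litter, number of cells and processing cannot be told apart.

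Probe sets of 1 gene disagreed on the difference of replicate 3 in some members. In 10 of the 25 members with several probe sets, replicate 3 was higher by some and lower by others. For Sox4 the difference ran from -0.87 to 2.10, and for Foxk2 from -0.37 to 1.58. For Sox12 it ran from -0.67 to 0.77. For Sox5 it was positive for all 4 probe sets, from 0.55 to 2.50, and for Foxp1 for all 7, from 0.37 to 0.99. The median spread between probe sets of a member (highest minus lowest) was 0.62.

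**Figure D4:**
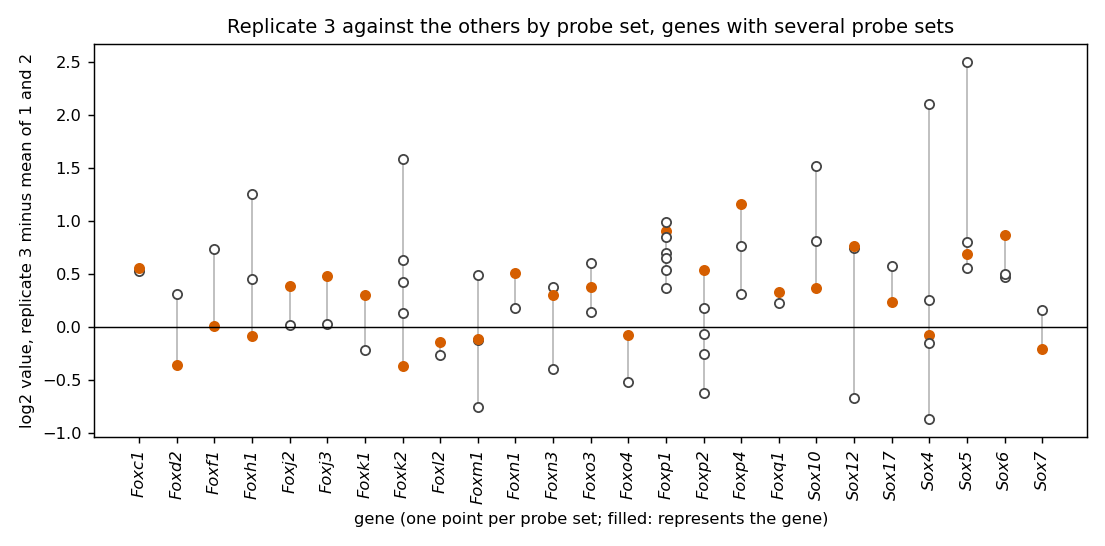
Log2 value of replicate 3 minus the mean of replicates 1 and 2 for every probe set of the 25 members with several, filled where the probe set represents the gene. The points of Sox4 span -0.87 to 2.10 and those of Foxk2 -0.37 to 1.58, while all 7 of Foxp1 lie over 0.

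The sequence upstream of the genes was examined for CpG, the cytosine-guanine step at which mouse DNA is methylated, because promoters of developmental regulators are known to be dense in it. RefSeq (GRCm38.p6) gave a start for 34 of the 52 members, and CpGs were counted in the 250 bases before it. Where RefSeq gave several starts, that with the most CpGs was taken. Members above background had a median of 27 (13 genes, 3 to 48) and members not above background had 18 (21 genes, 4 to 34). Over all genes the medians were 17 for those above background and 7 for the others. Forkhead and Sox genes not above background thus had about the median CpG count of all genes above background. At least 20 CpGs were found in 8 of the 13, 10 of the 21, 40.9% of all genes above background and 18.3% of the others.

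**Figure D5:**
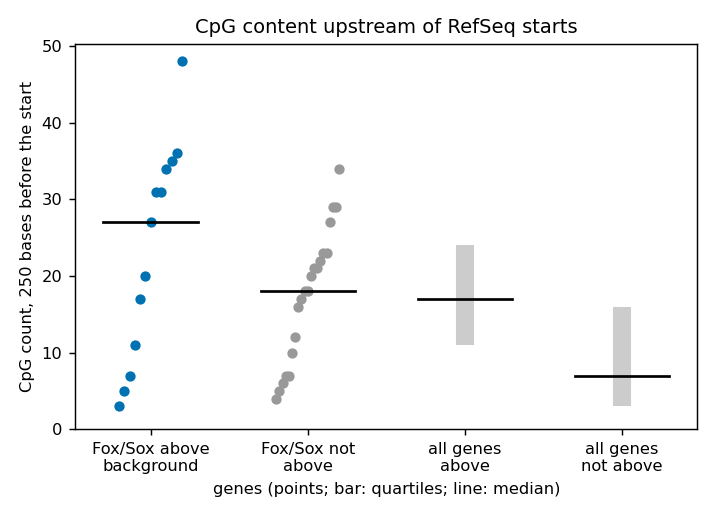
CpG count in the 250 bases before the RefSeq start for members above background (13), members not above background (21), all genes above background (7615) and all genes not above background (5990), with points for members, bars for the quartiles of all genes and lines for medians. The medians are 27, 18, 17 and 7.

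The range is shown by the members with the most and the fewest CpGs, first among those above background (Foxk2 with 48, Sox5 with 3) and then among those not above it (Foxj3 with 34, Foxi1 with 4). Only members with a single listed start were eligible. Each sequence runs 5′ to 3′ on the strand of the gene and ends at the base before its start, with CpGs in capitals.
Foxk2 (chr11:121259737-121259986, plus strand): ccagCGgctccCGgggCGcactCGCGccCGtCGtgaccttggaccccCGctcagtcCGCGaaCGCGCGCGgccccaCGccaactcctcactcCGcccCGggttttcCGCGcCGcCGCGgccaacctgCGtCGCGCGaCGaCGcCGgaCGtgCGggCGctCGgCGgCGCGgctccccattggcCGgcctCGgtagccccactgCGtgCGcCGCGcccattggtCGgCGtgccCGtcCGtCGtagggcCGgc
Sox5 (chr6:143947107-143947356, minus strand): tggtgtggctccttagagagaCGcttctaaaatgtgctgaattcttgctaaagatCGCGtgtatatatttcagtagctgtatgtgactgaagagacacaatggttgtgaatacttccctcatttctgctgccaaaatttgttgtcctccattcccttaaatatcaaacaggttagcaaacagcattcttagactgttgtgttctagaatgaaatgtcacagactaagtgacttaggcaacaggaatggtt
Foxj3 (chr4:119539411-119539660, plus strand): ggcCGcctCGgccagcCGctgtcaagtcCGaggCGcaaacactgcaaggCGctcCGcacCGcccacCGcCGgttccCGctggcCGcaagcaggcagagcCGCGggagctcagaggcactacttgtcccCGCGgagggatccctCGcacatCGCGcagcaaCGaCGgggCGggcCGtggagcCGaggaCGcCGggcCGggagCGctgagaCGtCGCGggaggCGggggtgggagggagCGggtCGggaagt
Foxi1 (chr11:34208090-34208339, minus strand): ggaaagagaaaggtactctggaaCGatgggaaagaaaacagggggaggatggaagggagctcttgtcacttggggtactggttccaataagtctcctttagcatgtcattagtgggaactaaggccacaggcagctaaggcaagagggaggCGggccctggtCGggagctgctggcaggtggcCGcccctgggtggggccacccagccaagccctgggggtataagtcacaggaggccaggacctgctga
CpG-dense and CpG-poor sequences thus occurred on both sides of the threshold. Sox5 has alternative starts beyond the listed one, and the arrays do not show which was used.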

How the data were processed

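RNA of 3 samples of 1 group was measured on 3 arrays. The authors deposited log2 expression values, 1 per probe set. Per the submitters' processing notes, RMA and affy were used. Versions, settings and the genome build are not given in the sources used here. Of 45141 probe sets, 28898 carried 1 gene symbol in the platform annotation, 551 several and 15588 none, and 104 were manufacturer controls. Only those with 1 symbol were used.

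The threshold was subtracted per array, and the mean was tested against 0 by an intercept fit in limma (3.58.1, under R 4.3.3) with trended empirical Bayes variances (one-sided, Benjamini-Hochberg over 17097 genes). The test leaves out the uncertainty of the threshold. No depth exists for arrays, and their number limits the precision. The steps were tested on simulated data. Figures and counts used Python 3.11.15.

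Members and lists were chosen with earlier results of these data known. Every member above background was named with its values, as were members over the threshold on any array, Sox2, Sox10, Sox17, Sox18, Sox21, Foxn1, Foxj1, Foxp3, Foxd3 and Foxq1, and the 3 members with the widest range. Each list contributed its first 3 genes called and its first 2 not called, in list order. Others were named after their values were seen. Alternatives were 3 other thresholds, the mean of probe sets, omission of cross-hybridising probe sets, quantile normalization, a filter on the dimmest 25% of genes, a fit without trend, and omission of each array.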

Additional observations from a re-analysis of the deposited data

How the results depend on the processing

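With tissue-restricted genes as background, 9 members were above background (7 forkhead and 2 Sox genes), with 4750 of all genes and 91 of the listed genes, against 19, 13, 6, 9426 and 138. The brightest antigenomic control gave 5399 of all genes. Under the tissue-restricted threshold, the mean distance turned negative for Foxb2 (-0.75), Foxn4 (-0.55), Foxo1 (-0.64), Foxo4 (-0.70) and Sox18 (-0.94). Under the antigenomic one it was -0.63, -0.43, -0.52, -0.59 and -0.82 for the same genes. The thresholds were 7.58, 7.51 and 7.41 for the former and 7.36, 7.31 and 7.48 for the latter, against 6.14, 6.17 and 5.99. Leaving out an array, between 17 and 22 members were above background (12 to 14 forkhead and 5 to 8 Sox genes). The 99th percentile gave 15 members and the mean of probe sets 21. Foxp3, Sox3, Sox14, Sox15 and Sox21 were above background in at least 1 alternative and not in the main setting. The dim-gene filter removed 15 of the 52 members and left 19 called. Quantile normalization, the fit without trend and the omission of cross-hybridising probe sets each gave 19 members. Background correction could not be varied from summarised values. No paired analysis was possible because the 3 arrays form 1 group.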

Other observations

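Noncoding genes that overlap members lay under the threshold on each array. Sox2ot, which overlaps Sox2, had log2 values of 4.81, 4.74 and 4.60. Sox6os, the antisense partner of Sox6, had 5.65, 5.74 and 5.63, and Foxl2os, that of Foxl2, had 4.30, 4.34 and 4.56.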
